A study of Mus musculus with 6 samples.

Results

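Mouse oocytes lack centrioles, and their meiotic spindle is built from acentriolar microtubule-organising centres and from microtubules that form around chromatin. The 9 genes described here encode proteins of that process and were chosen by name: Tpx2, Numa1, Tacc3, Ckap5, Tubg1, Pcnt, Cep192, Cdk5rap2 and Prc1. All 9 were found among the 55487 genes of the deposited table by their GENCODE M21 symbols. All 9 had reads in every library, with between 208 and 6053 counts each, and all 9 passed the filter on low counts.

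RNA was sequenced from 6 libraries of oocytes, 3 control and 3 cultured with metformin (called treated here), a biguanide used against diabetes. The females had received 10 IU of pregnant mare serum gonadotropin. Germinal-vesicle oocytes taken 46 to 48 h later were freed of cumulus cells and kept in M16 medium for 16 h to reach the second meiotic metaphase. The title of the series gives aged mice as their source, while the sample labels give neither age nor strain. The protocol lists metformin at 10, 20 and 50 μM without saying which concentration the sequenced oocytes received, and the number of oocytes or animals behind a library is not given. Nothing says that libraries came from separate animals or cultures, so the p-values cover only sample-to-sample spread, part of which may be technical.

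Libraries held between 8622281 and 10588292 counted reads. All 9 oocyte markers examined, among them Gdf9, Bmp15 and Zp3, passed the filter, and their summed level was 21795 to 23655 CPM (read counts relative to the TMM-scaled library size) in control and 19796 to 24306 CPM in treated libraries. Of 12 cumulus and granulosa markers, 9 failed the filter, and 3 of those 9 (Amh, Foxl2 and Ptx3) had no read in any library. Serpine2, Cyp19a1 and Nr5a2 passed. Cyp19a1 averaged 38.5 CPM in control and 41.8 CPM in treated libraries, and Nr5a2 18.6 and 16.4 CPM. The summed level of that list was 1383 to 1550 CPM in control and 1179 to 1669 CPM in treated libraries, and Serpine2 alone made up 1387 ± 88.8 CPM of it in control and 1377 ± 244 CPM in treated libraries (SD, n = 3). Control replicate 1 held 33.3 CPM of 8 blood and immune markers, against 1.70 CPM in the lowest control library and at most 2.28 CPM in any metformin library. Of 9 theca, stroma and endothelium markers, 3 passed the filter. All 9 summed to 34.9 to 40.8 CPM in control and 31.0 to 42.9 CPM in treated libraries. Pecam1 alone averaged 27.7 CPM in control and 27.8 CPM in treated libraries. Of the 6668 genes averaging at least 10 CPM, 25.5% were highest in metformin replicate 3, 22.7% in metformin replicate 1 and 9.66% to 17.7% in each of the other 4 libraries, where an equal split would give 16.7%.

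In the oocyte, γ-tubulin nucleates microtubules from ring complexes that pericentrin, CEP192 and CDK5RAP2 hold at the organising centres. TPX2 is released from importins near chromatin by the small GTPase Ran, and then promotes nucleation and activates Aurora A kinase. TACC3 and the microtubule polymerase CKAP5 act together on spindle microtubules, NuMA gathers microtubule ends at the poles with dynein, and PRC1 crosslinks antiparallel microtubules of the central spindle.

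The genes stand on 7 chromosomes of GRCm38, the assembly that mm10 names. Tpx2 (ENSMUSG00000027469) lies at chr2:152847964-152895321 and Ckap5 (ENSMUSG00000040549) at chr2:91526762-91620664, both on the plus strand. Numa1 (ENSMUSG00000066306) lies at chr7:101934111-102014964 and Prc1 (ENSMUSG00000038943) at chr7:80294450-80316259, both on the plus strand. Tacc3 (ENSMUSG00000037313) is at chr5:33658128-33678995 and Tubg1 (ENSMUSG00000035198) at chr11:101119938-101126419, both on the plus strand. Pcnt (ENSMUSG00000001151) at chr10:76351263-76442786 and Cdk5rap2 (ENSMUSG00000039298) at chr4:70216856-70410443 are on the minus strand.

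The library kit primes on poly(A) tails, and many maternal mRNAs lengthen their tails during maturation through a cytoplasmic polyadenylation element close to the end of the transcript. The last 100 bases of each gene's longest protein-coding GENCODE M21 transcript were therefore searched, on the transcript strand only, for TTTTAT or TTTTAAT. Of the 9 genes, 2 held the element there, Ckap5 and Pcnt, beside 16.6% of 21852 protein-coding genes. Among the protein-coding genes that passed the filter on low counts, 20.5% of 10530 held it. Counting any annotated coding transcript, Tpx2 also held it, in 2 of its 4 coding transcripts. The share over all genes under that wider rule was not counted. All 9 held a polyadenylation signal, AATAAA or ATTAAA, in the same window, as did 74.9% of all protein-coding genes. The 3 windows of 30 bases with the element are shown first, followed by those of Prc1 and Tacc3, 2 abundant transcripts without it. Capitals mark the element and the signal, and the letters are those of the GENCODE M21 transcripts.
Ckap5: agagacTTTTATaAATAAAgtttgcattaa
Pcnt: tattctTTTTATtggcaaaacaAATAAAac
Tpx2: tcttgaTTTTATatatttggtttttagagg
Prc1: tatgaaAATAAAatgtgtatagttaccttt
Tacc3: ccctgtAATAAAgacagctctgtcatctgg
In Ckap5 the element ended 22 bases and in Pcnt 33 bases before the end of the longest transcript. The Tpx2 window belongs to a transcript of 3654 bases, and the longest Tpx2 transcript, of 4365 bases, had only the signal. A match describes these letters and was not tested as a site of regulation.

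Metformin against control showed no member that passed the test. Of the 9 genes, 0 passed at an adjusted p under 0.05 by edgeR's quasi-likelihood test, and DESeq2 and limma-voom also called 0. Over all 12793 genes tested, 0.0391% passed by edgeR (0.0235% higher and 0.0156% lower in treated oocytes), 0.0391% by limma-voom, and 0.107% of the genes to which DESeq2 gave an adjusted p. At an unadjusted p under 0.05 there were 0 of 9 by edgeR, beside 1.5% of all genes. The groups overlapped for all 9, where 5.63% of all genes had no overlap between groups (2.84% higher, 2.79% lower). Fitted log2 fold changes ran from -0.17 for Numa1 to 0.13 for Pcnt, 3 above and 6 below 0, beside 47.5% of all genes below 0. Their median was -0.03, beside 0.01 for all genes tested.

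Tpx2, the Ran-regulated nucleation factor, was the steadiest of the 9 among control libraries. It stood at 549, 536 and 557 CPM in control replicates 1 to 3 and at 520, 482 and 559 CPM in metformin replicates 1 to 3. The metformin values enclosed all 3 control values. The spread over control libraries was 1.94% of the mean, close to the 1.45% that counting error alone gives at its lowest count of 4740 reads. The log2 fold change was -0.07 (SE 0.125, 95% interval -0.35 to 0.20, adjusted p = 1.00 by edgeR).

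Tacc3, an Aurora A substrate that acts on spindle microtubules, had the largest SD relative to its mean of the 9 genes in both groups, 20.6% in control and 30.7% in treated libraries. It stood at 230, 260.05 and 171 CPM in control replicates 1 to 3. In metformin replicates 1 to 3 it stood at 292, 184 and 171 CPM, so the highest and nearly the lowest of the 6 libraries were both metformin libraries. The log2 fold change was -0.03 (SE 0.225, 95% interval -0.53 to 0.47, adjusted p = 1.00 by edgeR). Ckap5, the polymerase that TACC3 recruits, stood at 334, 357 and 315 CPM in control and at 355, 286 and 297 CPM in treated libraries. Its fitted log2 change was -0.10 (SE 0.135, adjusted p = 1.00 by edgeR). Per length, on the authors' FPKM scale, the ratio of Tacc3 to Ckap5 within a library was 1.33 ± 0.201 in control and 1.39 ± 0.258 in treated libraries (SD, n = 3), with overlap. That ratio does not depend on how libraries are scaled to each other.

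Prc1, the antiparallel crosslinker, had the highest CPM of the 9 at 563 ± 45.2 in control and 525 ± 43.6 in treated libraries (SD, n = 3). Single values were 578, 599 and 512 CPM in control and 576, 501 and 499.8 CPM in treated libraries, with metformin replicates 2 and 3 below every control library. The log2 fold change was -0.10 (SE 0.132, 95% interval -0.39 to 0.19, adjusted p = 1.00 by edgeR). Rccd1, on the opposite strand, shares 11.1% of the annotated exon bases of Prc1. Reads there cannot be assigned by strand, and 200 reads were counted for Rccd1 over all 6 libraries. Numa1, the dynein-bound pole-focusing protein, had the fold change farthest from 0 on the lower side. It stood at 28.4, 32.7 and 31.0 CPM in control and at 32.1, 28.2 and 21.3 CPM in treated libraries, and metformin replicate 3 was the only library clearly below the others. Its fitted log2 change was -0.17 (SE 0.186, 95% interval -0.58 to 0.23, adjusted p = 1.00 by edgeR).

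**Figure D1:**
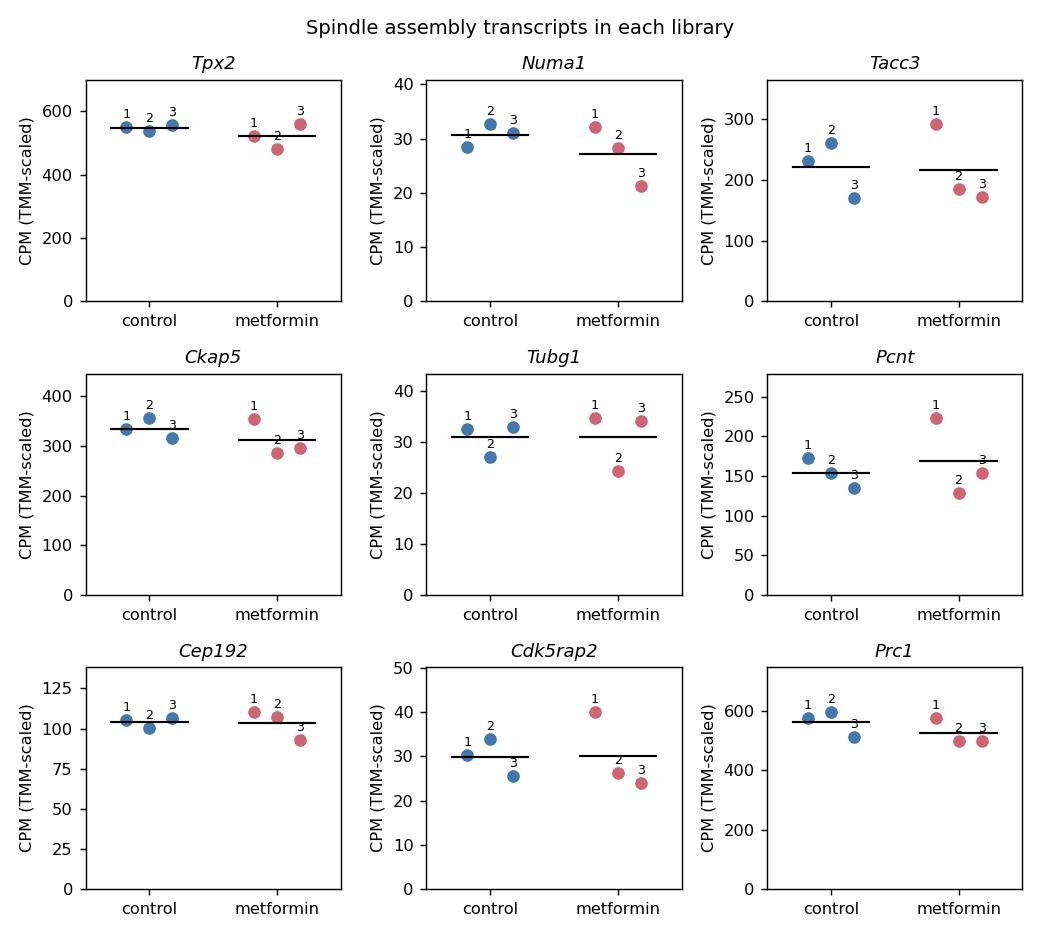
TMM-scaled CPM of the 9 genes in each library, with the y axis from 0; points are libraries labelled with their replicate number and horizontal lines are group means (n = 3). For Tacc3, Pcnt and Cdk5rap2 metformin replicate 1 was the highest of the 6 libraries, and the groups overlapped for all 9 genes.

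Among the scaffolds of the organising centres, Pcnt, which tethers γ-tubulin complexes, had the fold change farthest above 0. Its values were 173, 154 and 135 CPM in control and 223, 129 and 154 CPM in treated libraries. Metformin replicate 1 was the highest and metformin replicate 2 the lowest of the 6 libraries. The log2 fold change was 0.13 (SE 0.196, 95% interval -0.30 to 0.56, adjusted p = 1.00 by edgeR). Cep192 (ENSMUSG00000024542, chr18:67800107-67885170, plus strand), which recruits Aurora A and Plk1 to centrosomes, was among the steadier genes at 105, 101 and 106 CPM in control and at 111, 107 and 92.6 CPM in treated libraries. Its fitted log2 change was -0.01 (SE 0.136, adjusted p = 1.00 by edgeR). Cdk5rap2, an activator of γ-tubulin ring complexes, stood at 30.3, 33.9 and 25.6 CPM in control. In metformin libraries it stood at 40.1, 26.2 and 23.9 CPM, again with replicate 1 highest and the other 2 within or just below the control range. Its fitted log2 change was 0.01 (SE 0.216, adjusted p = 1.00 by edgeR). Ywhaq-ps3, a transcribed processed pseudogene on the same strand, shares 2.81% of the annotated exon bases of Cdk5rap2. Over all 6 libraries 245 reads were counted for Ywhaq-ps3, and how reads in the shared bases were assigned is not given. Within a library the FPKM of Pcnt was 5.02 ± 0.579 times that of Cdk5rap2 in control and 5.48 ± 0.732 times in treated libraries (SD, n = 3). It was 1.61 ± 0.208 times that of Cep192 in control and 1.77 ± 0.443 times in treated libraries (SD, n = 3), and both ratios overlapped between groups.

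Tubg1, which encodes γ-tubulin 1, stood at 32.6, 27.1 and 33.0 CPM in control and at 34.7, 24.3 and 34.1 CPM in treated libraries. Replicate 2 was the lowest library of each group. The log2 fold change was 0.01 (SE 0.186, 95% interval -0.40 to 0.41, adjusted p = 1.00 by edgeR). Its neighbour and paralog Tubg2 (chr11:101155907-101161787, plus strand) was the more abundant γ-tubulin gene, at 142 ± 11.4 CPM in control and 143 ± 4.54 CPM in treated libraries (SD, n = 3). Per length, Tubg2 stood 5.89 to 8.16 times above Tubg1 on the FPKM scale and 4.24 to 5.88 times above it per kilobase of longest coding transcript, in each of the 6 libraries.

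The transcripts of the pair are 93.1% identical over 1368 aligned bases, and 13.9% of the 50-base windows of Tubg1 also occur in Tubg2. The division of reads between them is uncertain, because no source used here says how reads matching several genes were treated. The longest run that both transcripts hold without a mismatch spans positions 896 to 1059 of the Tubg1 transcript, 164 bases in which a read cannot be told apart.
Tubg1 and Tubg2: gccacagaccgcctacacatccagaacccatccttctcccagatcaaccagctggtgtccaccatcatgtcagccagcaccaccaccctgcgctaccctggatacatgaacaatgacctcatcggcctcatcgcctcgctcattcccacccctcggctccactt
Summed over both genes, the level was 173 ± 14.7 CPM in control and 174 ± 9.95 CPM in treated libraries (SD, n = 3). Where each shared read was counted once, the sum does not depend on how reads were divided between the pair. No source used here says whether shared reads were counted once, dropped or counted for both genes.

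For each of the 9 genes the 95% interval of the fold change lay between 0.668 and 1.48, each interval taken alone and not adjusted for the 9. In the reported fit, changes of 1.5-fold or more in either direction thus lay outside every interval. The lower bound of Numa1, 0.668, was close to that limit. Intervals under the other scalings, tools or sets of libraries are not given, so the limit holds for the reported fit only. The fold intervals differed in width by gene, as in 0.787 to 1.15 for Tpx2 and 0.815 to 1.48 for Pcnt. The biological coefficient of variation that edgeR fitted ran from 14.3% for Tpx2 to 21.4% for Tacc3, beside a median of 18.3% over genes of at least 10 CPM. Among those genes Tpx2 stood at percentile 0.690, Prc1 at 2.71, Ckap5 at 5.35 and Cep192 at 9.94, on the steady side, and Tacc3 at 81.8 and Cdk5rap2 at 79.6, on the variable side.

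**Figure D2:**
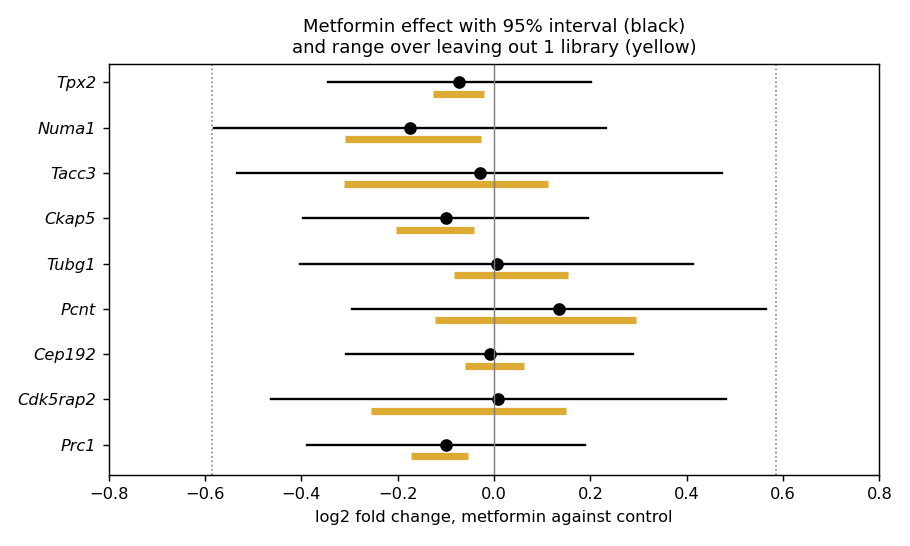
Log2 fold change of metformin against control from edgeR (black point) with its 95% interval (black line) and the range of the estimate when 1 library is left out (yellow bar); dotted lines mark 1.5-fold. All intervals include 0 and lie inside the dotted lines, and the yellow bars of Tacc3, Tubg1, Pcnt, Cep192 and Cdk5rap2 cross 0.

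Single libraries moved several of these values. Metformin replicate 1 was the highest library for 5 of the 9 genes, Tacc3, Tubg1, Pcnt, Cep192 and Cdk5rap2. On the log2 scale it stood 0.45 above the mean of the 6 libraries for Tacc3, 0.50 above it for Pcnt and 0.44 above it for Cdk5rap2, while the deviation of Tpx2 was -0.04. Without it all 9 genes were fitted lower in metformin, from -0.06 for Cep192 to -0.31 for Numa1 and Tacc3. Their median was then -0.17, beside -0.00076 for all genes tested in that setting. The share of all genes fitted lower in that setting was not counted. Then 3 of 9 had no overlap between groups, beside 17.3% of all genes in the same 5 libraries, and 0 of 9 passed or had an unadjusted p under 0.05 by edgeR. The count of genes with no overlap among the 9 was 0 without control replicate 1 (12.6% of all genes) or 2 (13.8%), 1 without control replicate 3 (14.3%) or metformin replicate 2 (14.6%), and 2 without metformin replicate 3 (13.9%). The Pcnt estimate fell below 0 only without metformin replicate 1, at -0.12, among the 6 libraries left out in turn. The Tubg1 estimate was below 0 without metformin replicate 1 (-0.0841), control replicate 2 (-0.0809) or metformin replicate 3 (-0.0679), and that of Cdk5rap2 without metformin replicate 1 (-0.26) or control replicate 3 (-0.0912). The Tacc3 estimate was above 0 without control replicate 2 (0.10), metformin replicate 2 (0.07) or metformin replicate 3 (0.11), and that of Cep192 without control replicate 3 (0.0079) or metformin replicate 3 (0.0629).

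**Figure D3:**
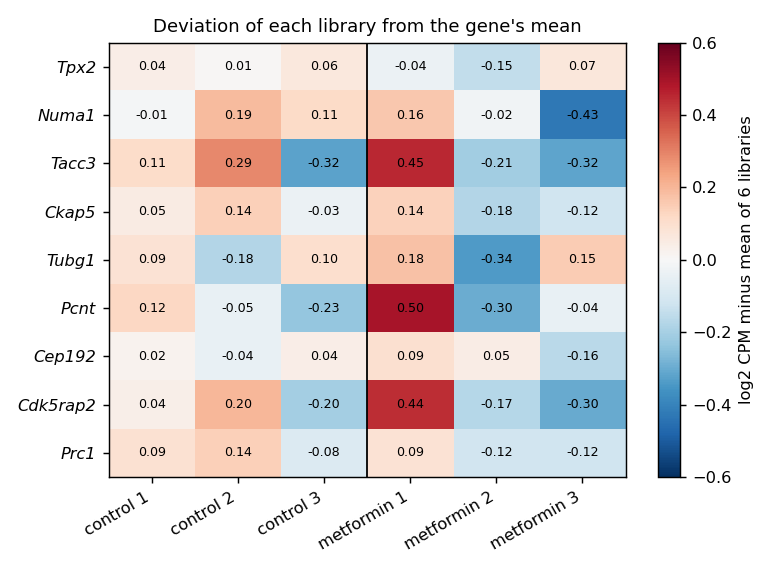
Deviation of log2 CPM in each library from the mean of the 6 libraries, for each gene (red above, blue below; values printed in the cells). Metformin replicate 1 was high for Tacc3, Pcnt and Cdk5rap2, whereas Tpx2 stayed within 0.15 of its mean in every library.

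The order of the members by level can be compared only per length. On the authors' FPKM scale (fragments per kilobase, scaled to library depth) Tpx2 was highest at 73.6 ± 4.07, followed by Prc1 at 35.5 ± 4.44, Tacc3 at 34.3 ± 9.57 and Ckap5 at 24.8 ± 3.31 (SD, n = 6). Tubg1 followed at 12.3 ± 1.74, Pcnt at 11.3 ± 2.87 and Cep192 at 6.69 ± 0.674, and Cdk5rap2 and Numa1 were lowest at 2.17 ± 0.547 and 2.14 ± 0.381 (SD, n = 6). Tpx2 exceeded 95.3% and Numa1 46.4% of the tested genes in mean FPKM, so the set spans from abundant to middling transcripts of the oocyte. The highest mean was 34.4 times the lowest.

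Neighbours in that order were compared by their ratio within each library. The neighbours were set by ranking the means of the same 6 libraries, so the ratios are given as a description. Of the 8 neighbouring pairs, 5 had the same direction in 6 of 6 libraries. They were Tpx2 over Prc1 (2.08-fold), Tacc3 over Ckap5 (1.35-fold), Ckap5 over Tubg1 (2.01-fold), Pcnt over Cep192 (1.66-fold) and Cep192 over Cdk5rap2 (3.14-fold). The pairs Prc1 and Tacc3, Tubg1 and Pcnt, and Cdk5rap2 and Numa1 did not differ beyond their spread, with the same direction in 4, 5 and 4 of 6 libraries.

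This order rests on the gene lengths in the deposited FPKM values. The length that the FPKM values imply was 15348 bases for Prc1, whose longest coding transcript has 3026 bases, a 5.07-fold difference. For Tpx2 it was 7234 bases beside 4365, a 1.66-fold difference, and for Cdk5rap2 13888 beside 11847, a 1.17-fold difference. Among 3966 well covered genes (200 reads or more per library) the median difference was 2.02-fold, with quartiles of 1.46 and 2.83, so Prc1 was far to one side. Per kilobase of longest coding transcript, in FPKM units from the library totals, Prc1 was highest at 180 ± 22.5, above Tpx2 at 122 ± 6.75, Tacc3 at 75.8 ± 21.1 and Ckap5 at 48.6 ± 6.48 (SD, n = 6). Prc1 then exceeded Tpx2 1.47-fold, in 6 of 6 libraries. At the lower end, Numa1 at 4.04 ± 0.721 then stood above Cdk5rap2 at 2.55 ± 0.641 (SD, n = 6). Per kilobase of merged GENCODE M21 exons, Tpx2 stayed 1.73-fold above Prc1.

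**Figure D4:**
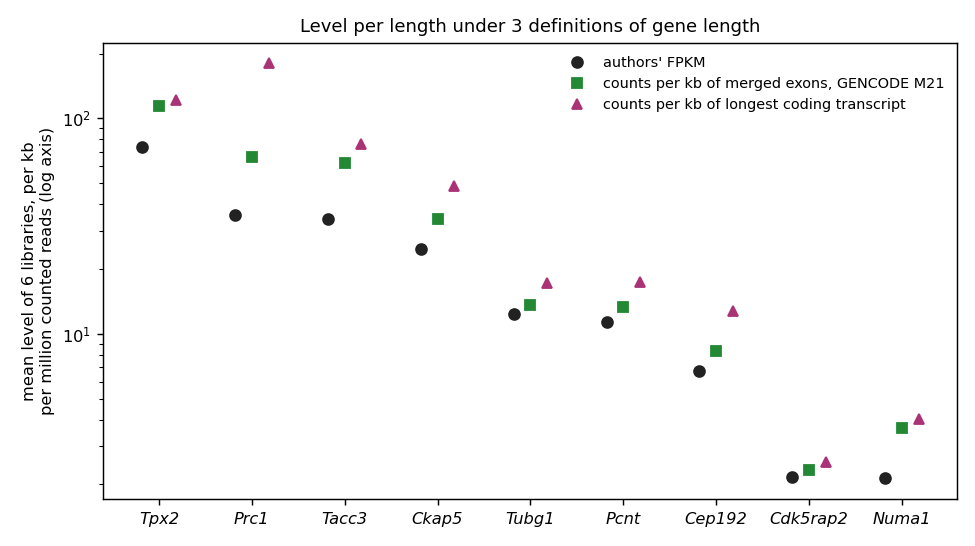
Mean level over the 6 libraries on a log axis, in FPKM units, with gene length taken as in the authors' FPKM values, as the merged GENCODE M21 exons, or as the longest coding transcript. Prc1 moved from 35.5 to 180 between the first and the last definition and changed place with Tpx2.

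Paralogs and close relatives of the members differed in level. On the FPKM scale Tacc3 stood 17.0 to 24.8 times above Tacc1 and 2.31 to 3.87 times above Tacc2 in the 6 libraries, and per kilobase of longest coding transcript 1.99 to 3.33 times above Tacc2. Pcnt stood 3.73 to 5.14 times above Akap9, a second large γ-tubulin-binding scaffold, on the FPKM scale. Cdk5rap2 and its relative Pde4dip (myomegalin) did not keep one order, with an FPKM ratio of 0.704 in control replicate 1 and 0.875 in metformin replicate 1 but 3.30 to 4.54 in the other 4 libraries. Per kilobase of longest coding transcript the same ratio was 0.320 and 0.397 in those 2 libraries and 1.499 to 2.06 in the other 4. Tpx2 stood 1.71 ± 0.219 times above its partner Aurka in FPKM in control and 1.83 ± 0.135 times in treated libraries (SD, n = 3), with overlap.

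In all, 7 lists of other spindle assembly genes, holding 92 genes, were read from the same fit. Of these, 85 passed the filter, and 0 passed the test by edgeR, DESeq2 or limma-voom, with 0 at an unadjusted p under 0.05 by edgeR. Of the 85, 41 had estimates above 0 and 44 below, the median being -0.0030 on the log2 scale, and 2 of 85 had no overlap between groups. The background was 5.63% without overlap and 47.5% of all genes fitted lower.

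The γ-tubulin ring complex was uneven in reads per transcript length. The kit primes on poly(A) tails, and whether tail length affected the levels given here was not tested. Per kilobase of longest coding transcript, in FPKM units from the library totals, the targeting subunit Nedd1 stood at 105 ± 7.62, the small subunit Mzt1 at 87.1 ± 8.98 and Tubg2 at 81.2 ± 4.70 (SD, n = 6). The second small subunit gene, Mzt2, stood at 1.70 ± 0.631, and the shell subunits were also lower, with Tubgcp5 at 8.67 ± 1.08, Tubgcp2 at 2.21 ± 0.442, Tubgcp4 at 0.641 ± 0.289 and Tubgcp3 at 0.341 ± 0.0800 (SD, n = 6). Tubgcp6 had only 2 to 7 reads per library and did not pass the filter. On the FPKM scale Nedd1, Mzt1 and Tubg2 stood at 78.2, 44.2 and 81.2, and Tubgcp5, Tubgcp2 and Mzt2 at 2.61, 1.13 and 0.570. Of the 8 tested, 2 were fitted higher and 6 lower, with a median of -0.14. With 1 library left out the number fitted higher ran from 1, without control replicate 2, metformin replicate 1 or metformin replicate 3, to 4, without control replicate 1. The smallest p-values were those of Tubgcp2 at 7.38 ± 1.03 and 6.12 ± 0.925 CPM and Mzt1 at 207 ± 19.7 and 185 ± 27.2 CPM in control and treated libraries (SD, n = 3; unadjusted p = 0.266 and 0.308, adjusted p = 1.00, edgeR).

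Augmin, the complex that brings γ-tubulin to existing microtubules, was likewise uneven. Haus3, Haus4 and Haus1 stood at 102 ± 10.3, 99.7 ± 6.35 and 58.0 ± 8.62 per kilobase of longest coding transcript (SD, n = 6), while Haus2 had 3 to 8 reads per library and was not tested. On the FPKM scale the same 3 genes stood at 30.9, 42.9 and 8.70, and Haus1 was then close to Haus6 at 6.75. Of the 7 tested, 3 were fitted higher and 4 lower, and 5 were fitted higher without control replicate 1 or metformin replicate 3, but 2 without metformin replicate 2. Haus8 had 11.3 ± 2.67 CPM in control and 8.22 ± 1.49 CPM in treated libraries, and Haus4 at 150.2 ± 8.21 and 168 ± 19.2 CPM (SD, n = 3; unadjusted p = 0.0826 and 0.265, adjusted p = 1.00, edgeR).

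**Figure D5:**
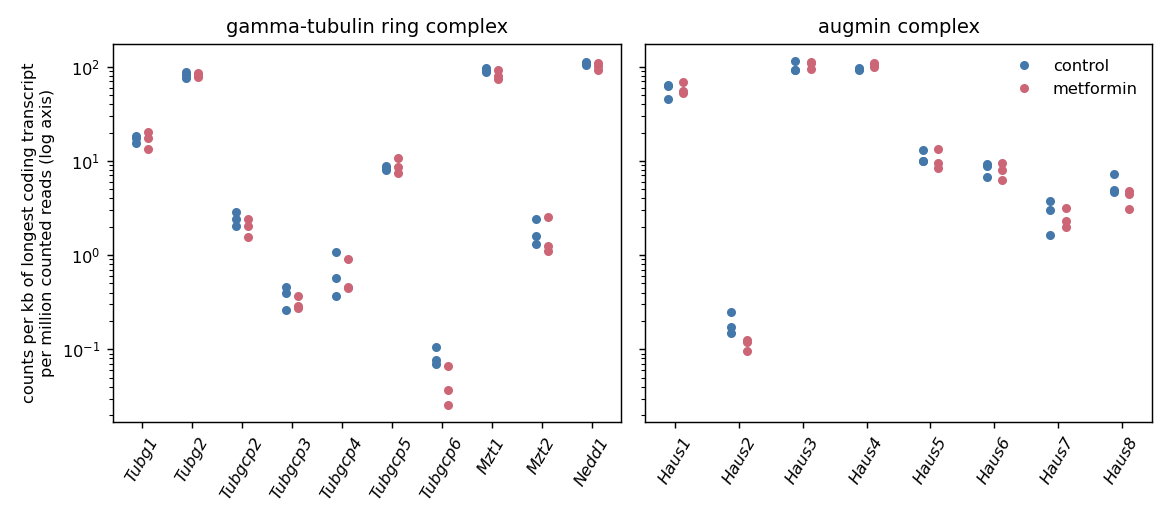
Level per kilobase of longest coding transcript, in FPKM units from the library totals, on a log axis, of γ-tubulin ring complex and augmin genes in each control (blue) and metformin (red) library. Nedd1, Mzt1, Tubg2, Haus3 and Haus4 have means between 81.2 and 105, and Tubgcp3, Tubgcp4, Tubgcp6 and Haus2 have means below 1; on the FPKM scale the levels of most of these genes are lower.

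In the Ran and importin list, 5 of 10 genes were fitted higher and 5 lower, and 3 were fitted higher without control replicate 3 or metformin replicate 1, but 8 without metformin replicate 3. Ranbp2, a nuclear pore protein that binds Ran, had 89.3 ± 3.67 CPM in control and 81.1 ± 12.2 CPM in treated libraries, and the Ran exchange factor Rcc1 at 10.2 ± 0.796 and 11.5 ± 0.850 CPM (SD, n = 3). Among the pole, TPX2 and TACC3 partners, 6 of 13 tested genes were fitted higher and 7 lower. Of the 13, 2 were fitted higher without metformin replicate 1, but 9 without metformin replicate 3. The kinase gene Plk1 had the smallest p of the 85 genes, at 100.3 ± 7.73 and 123 ± 18.03 CPM (SD, n = 3; unadjusted p = 0.0750, adjusted p = 1.00, edgeR), and the Aurora A activator Bora stood at 57.7 ± 9.51 and 50.2 ± 3.94 CPM (SD, n = 3).

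Of the 19 centriole and centrosome scaffold genes, all tested, 13 were fitted higher and 6 lower, with a median of 0.02. Their summed level was 1441 to 1486 CPM in control libraries and 1276 to 1823 CPM in treated libraries, with metformin replicate 1 highest. Without that library 4 of the 19 were fitted higher and 15 lower, with a median of -0.14, and without control replicate 3 there were 7 higher and 12 lower, with a median of -0.07. Cntrob, a centriole-associated gene, had 20.99 ± 3.44 and 16.2 ± 3.25 CPM and Cep63 at 5.46 ± 1.36 and 7.37 ± 1.29 CPM in control and treated libraries (SD, n = 3). In the list of microtubule dynamics and severing, 11 of 18 tested genes were fitted higher and 7 lower, and 7 were fitted higher without metformin replicate 1. Clasp2, a plus-end stabiliser, stood at 34.9 ± 1.52 and 30.7 ± 2.45 CPM with no overlap (SD, n = 3). Of 10 genes in the central spindle list, 9 were fitted lower, with a median of -0.07, and 6 were fitted lower without metformin replicate 2. Kif20a stood at 179.9 ± 10.5 and 163 ± 3.73 CPM with no overlap and Kif20b at 385 ± 12.03 and 355 ± 31.9 CPM (SD, n = 3). All of these genes missed the threshold (edgeR, adjusted p = 1.00).

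The gene whose log2 CPM followed each member most closely over the 6 libraries was searched among 6667 other genes averaging at least 10 CPM. With only 6 libraries, all sharing one scaling, high values can arise easily, and between 42 and 344 genes exceeded a Pearson r of 0.9 with a member. The same search was not run for genes other than the members. The closest were Slc31a2 for Tpx2 (r = 0.983), Nsd2 for Numa1 (0.998), Rnf40 for Tacc3 (0.995), Fbxo43 for Ckap5 (0.991) and Prlr for Tubg1 (0.994). For Pcnt it was mt-Rnr2 (0.999), for Cep192 Snx14 (0.990), for Cdk5rap2 Gm2423 (0.995) and for Prc1 Ube4a (0.988). These values describe the libraries and were not tested.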

How the data were processed

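The authors deposited 1 table holding, per the file headers, raw counts of reads and FPKM values for each gene in each library. CASAVA 1.8, TopHat2 2.0.6 and the build mm10 are listed, per the submitters' processing notes. Counting program, annotation and handling of multiply matching reads were not given in the sources used here. Libraries were made with the SMART-Seq HT kit per the labels' protocols, which keeps neither strand nor molecular identifiers. Counts were used as deposited. Symbols were matched for 55141 of 55487 identifiers.

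Metformin was compared with control by edgeR 4.0.16 (R 4.3.3), a robust quasi-likelihood fit with TMM scaling, filterByExpr (minimum count 10), Benjamini-Hochberg adjustment over all 12793 genes and a threshold of 0.05. Each SE is the absolute log2 fold change divided by the square root of its F statistic. DESeq2 1.42.0 and limma 3.58.1 were alternatives. FPKM entered the order of levels and the ratios between genes only. Only the edgeR fit was tested on simulated counts.

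Members and gene lists were chosen with earlier results of these data known. Named were the 9 members, their paralogs, for each list the 2 genes with the smallest p, and each member's closest gene, apart from 1 gene that is not reported here; other genes named in descriptions of levels were chosen after their values were seen. Counting errors cover sampling of reads only. Values are relative to each library's total, so fewer cells or less RNA per cell cannot be told apart.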

Additional observations from a re-analysis of the deposited data

How the results depend on the processing

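None of the 15 alternatives called a member or another spindle assembly gene. The Tubg1 estimate, 0.01 in the reported fit, took the other sign at -0.0028 with upper-quartile scaling, -0.0037 with library-size scaling, -0.0015 with no filter, -0.000241 with a mean of at least 10 CPM and -0.0092 by limma-voom. Cdk5rap2 was at -0.0158 by limma-voom. DESeq2 called 10 genes in all, and leaving out 1 library gave 5 to 12 (control replicates 1 and 3 left out: 9 and 8 genes; metformin replicates 1 to 3 left out: 9, 11 and 12 genes). Leaving out 1 library gave 0 to 3 members without overlap, and ranges of -0.31 to 0.11 for Tacc3, -0.0841 to 0.154 for Tubg1, -0.12 to 0.29 for Pcnt, -0.0611 to 0.0629 for Cep192 and -0.26 to 0.15 for Cdk5rap2. With the replicate number as a replicate block, 7 genes and 0 members passed, and Tubg1 and Cdk5rap2 stood at -0.00583 and -0.0182. Deviations of same-numbered libraries correlated at 0.168, 0.0246 and 0.231, and those of differently numbered libraries at -0.204 to 0.0515. The highest of the latter was that of control replicate 2 with metformin replicate 1. The labels do not say what the number stands for, so the reported fit took no pairs. Whether the libraries were paired was not tested. Where the block or a scaling moved a sign, the cause was not tested. Per length, 0 neighbouring pairs ranked by FPKM had an adjusted p under the threshold by an exact two-sided sign-flip permutation test over the 6 libraries, beside 6 ranked by merged exons and 7 by the longest coding transcript; each of these pairs had the smallest p the test allows, so the counts follow from how many pairs reached it (5, 6 or 7 of 8) and say nothing of which order is right. The log2 ratio of Cdk5rap2 to Numa1 was 0.01 in FPKM, -0.67 and -0.68 under those lengths, and -0.0453 to 0.0746 over libraries left out. That of Tpx2 to Prc1 was -0.55 with the longest transcript. The log2 ratio of Tacc3 to Ckap5 was 0.82 with merged exons, and with the longest transcript those of Tpx2 to Aurka, Pcnt to Cdk5rap2 and Pcnt to Cep192 were 0.52, 2.77 and 0.41; these shifts follow from the lengths.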

Other observations

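Pde4dip, a relative of Cdk5rap2, stood at 67.0 CPM in control replicate 1 and 71.4 CPM in metformin replicate 1, but between 9.31 and 12.1 CPM in the 4 remaining ones. Map4, a microtubule-stabilising protein gene, stood at 232 CPM in metformin replicate 1 but between 69.5 and 102 CPM in the 5 remaining ones. Both were chosen after their values were seen and neither passed the test (adjusted p = 1.00, edgeR). The libraries high for Pde4dip share the replicate number 1 in the labels, which do not say what the number stands for.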
